A study of Tripsacum dactyloides with 133 samples.

Results

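Gene expression in crown roots of the cultivar Pete of eastern gamagrass (Tripsacum dactyloides), a perennial grass related to maize, was compared between plants inoculated with microbiota from drought-conditioned soil and plants inoculated with microbiota from watered soil, when the plants themselves were kept well-watered. Conditioning is an earlier phase in which pots of prairie soil were kept under drought stress (inocula ending in _D) or well-watered (inocula ending in _W), with gamagrass in the pot (inocula with _G_) or with no plant (_N_). An extract of each pot's microbiota was then given to new plants in a sterile mixture of sand and clay, and these plants were droughted or well-watered in a test phase. All well-watered plants of a live inoculum were taken, 62 libraries beside 71 others in the series, 30 with D and 32 with W inocula. By site of the soil the D and W plants numbered 8 and 8 for CWR, 6 and 8 for WEL, 8 and 8 for SVR, and 8 and 8 for TRI. Each inoculum gave 4 plants, except WEL_N_D with 2. The live droughted plants, 32 with D and 31 with W inocula, and the mock plants served only for context. SVR and TRI count as low and CWR and WEL as high precipitation legacy, which comes from the study and not from the labels. Plants are named here by inoculum and plant number.

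Microbiota that have lived through a dry period can differ in composition and activity from those kept moist, and roots respond to soil microbes through defence, symbiosis, nutrient uptake and hormone pathways. A difference between D and W inocula in well-watered plants thus concerns the water history of the soil community, with no water difference of the plant itself. The libraries are bulk crown roots, so fewer cells of a type and less RNA per cell cannot be told apart. The deposited tables pair genes with maize orthologues but give no gene names, so the tissue could not be checked against its markers, and most genes are described by identifier, position and orthologue. Pots of origin are not in the labels. Per the study, extracts of single pots were not pooled. Each went to a droughted gamagrass pot, and only part of them also to 1 well-watered gamagrass pot. A well-watered plant may thus share its extract with a droughted plant of the series, and the p-values treat all plants as independent.

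Depth and plant number did not differ detectably between the groups. Total counts ranged from 1.14 to 62.1 M in D plants (median 24.3 M) and from 8.05 to 69.4 M in W plants (median 27.7 M), where M is mega. The difference in mean was -1.85 M (permutation test within site and conditioning host, two-sided, p = 0.695). The plant numbers averaged 442.4 in D and 441.8 in W plants (permutation p = 0.946). SVR_N_D plantID_432 held 1.14 M counts and was the only library under 5 M. The droughted live plants, used for context, had medians of 51.9 M (D) and 53.2 M (W). Correlations of log2 CPM (counts scaled to library size, on a log2 scale) between the 62 libraries reached at most 0.918 (median 0.847), so no pair of libraries was a repeat of the same counts.

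Across the transcriptome no separation of D from W plants was detected. Conditioning water accounted for 1.16% of the variation in log2 CPM over 29756 genes (permutational analysis of distances between samples with vegan, permutation p = 0.927), below the 1.64% that 1 of the 61 degrees of freedom holds on average. Conditioning host accounted for 1.92% (p = 0.200) and legacy for 1.21% (p = 0.855). When plant number and log2 total count were fitted too, plant number took 3.04% (p = 0.0199), total count took 6.01% (p = 1e-04, the smallest the permutations can give) and conditioning water 1.24% (p = 0.673). The distances of plants from the centre of their group were 191 ± 37.9 for D and 189 ± 29.4 for W plants (SD, n = 30 and 32, permutation p = 0.788).

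Gene by gene, 8 of 43395 tested genes passed an adjusted p of 0.05 (DESeq2 Wald test with legacy and conditioning host as covariates), which is 0.0184% of the genes tested. A single gene rose and 7 fell with D inocula. Unadjusted p-values under 0.05 were found for 1526 genes (3.52%). edgeR's quasi-likelihood test called 0 of 31673 genes, with 868 at an unadjusted p under 0.05 and a smallest adjusted p of 0.195, and limma voom also called 0. The median log2 fold change over all genes was 0.01 and the median size was 0.12. Of the 8 called genes, 7 had over 50% of their normalized counts in 5 of the 62 libraries, and 3 had a maize orthologue, against 72.95% of all genes with a p-value.

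**Figure D1:**
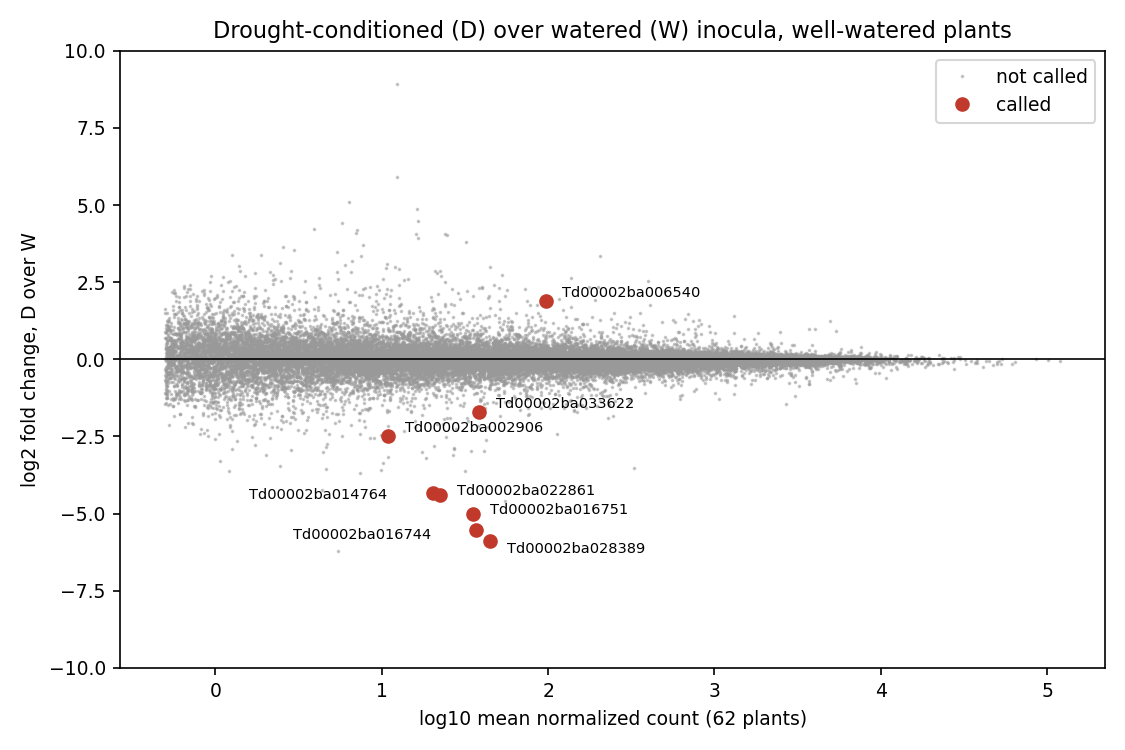
Log2 fold change of D over W inocula in well-watered plants (y axis) against the mean normalized count on a log10 axis (x axis), 1 point a gene, for genes with a mean of 0.5 or more and a fold change within 10 on the log2 scale. The 8 called genes (red) have mean normalized counts between 10.97 and 96.8, 7 of them lie below 0, and no gene of high level was called.

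Td00002ba016744 (chromosome 5, 24393144 to 24395752, minus strand), a gene with no maize orthologue in the table, was lower with D inocula. Its normalized counts (counts divided by DESeq2's size factors) ran from 0 over a median of 0 to 8.70 in D plants, and from 0 over a median of 3.39 to 580 in W plants. No D plant exceeded 50, whereas 7 of 32 W plants did, with 580 in SVR_G_W plantID_487, 500 in WEL_G_W plantID_425, 423.3 in CWR_N_W plantID_400, 332 in SVR_N_W plantID_447, 222 in SVR_N_W plantID_398, 77.2 in WEL_N_W plantID_429 and 60.8 in TRI_N_W plantID_484. These plants came from all 4 sites and from 6 inocula, and the remaining W plants overlapped the D plants. The log2 fold change was -5.54 (SE 0.92, adjusted p = 6.66e-05, DESeq2). Its unadjusted p stayed under the largest p of the called genes (2.74e-06) in each of 62 refits that left out 1 plant. The gene was not called when all SVR plants were left out. Its log2 fold change was -0.88 (SE 0.88) with host-conditioned inocula, where DESeq2 replaced the counts of 2 W plants. With unplanted inocula it was -5.33 (SE 1.32), and the interaction with conditioning host (-0.50, SE 1.86) was not called. In the 3 mock well-watered plants with usable depth the gene lay between 0 and 2.14.

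A neighbour on the same strand, Td00002ba016751 (24445262 to 24448551), was high in the same plants and is named after its values were seen. Its counts reached 20.9 in D plants and 567 in W plants, and its log2 fold change was -5.01 (SE 0.95, adjusted p = 0.00198, DESeq2). The fold change was -4.34 without plantID_425 (unadjusted p = 4.15e-06) and -4.30 without plantID_487 (p = 5.38e-06, DESeq2). With host-conditioned inocula it was -0.40 (SE 0.99), with the counts of 2 W plants replaced, and with unplanted inocula -4.39 (SE 1.29). Over the 62 well-watered and 63 droughted live plants, 11 exceeded 50 normalized counts in Td00002ba016744 and the same 11 did so in Td00002ba016751, with ratios between the genes of 0.860 to 1.37. In the remaining live plants Td00002ba016744 did not exceed 8.70 and was at 0 in 64. The genes of the pair were thus high together in a few plants and near 0 in the others. Between them, over 49.5 kb, lie 6 annotated genes, which did not exceed 66 in the 11 plants, none with an unadjusted p under 0.05 in well-watered plants. Reads mapping to several places were counted at their primary alignment, so reads of near-identical copies could be shared between the pair.

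**Figure D2:**
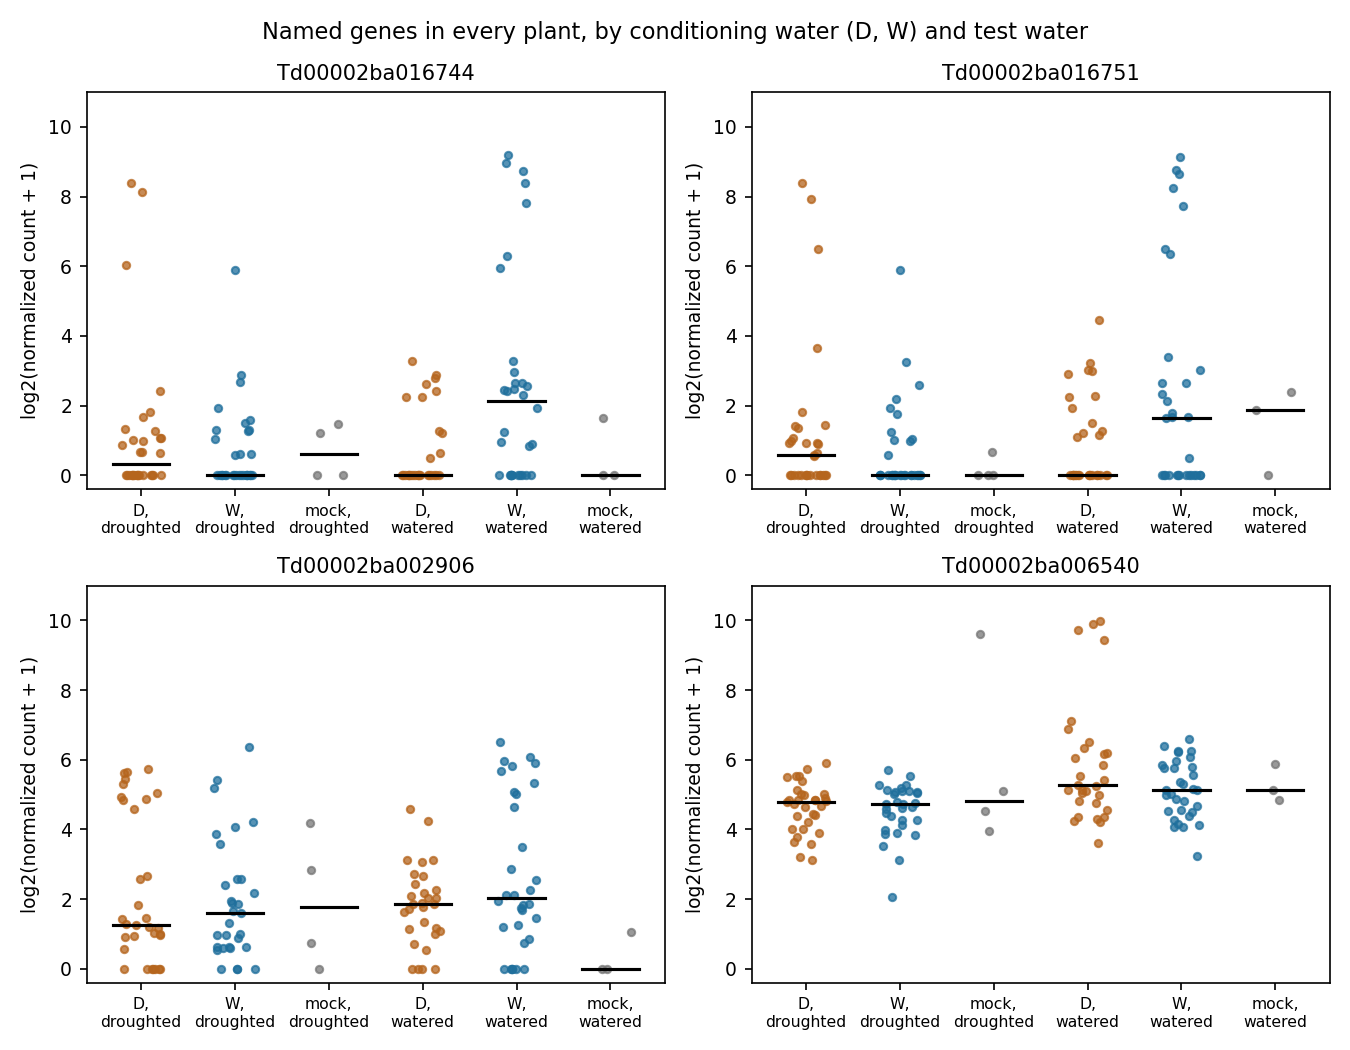
Normalized counts of 4 genes in every plant on a log2 scale after adding 1 (y axis), by conditioning water (D brown, W blue, mock grey) and test water, with medians as bars. Td00002ba016744 and Td00002ba016751 are high in 7 well-watered W plants and in no well-watered D plant. Td00002ba006540 is far above the other live plants in 4 well-watered D plants, and a droughted mock plant is as high.

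Td00002ba006540 (chromosome 2, 63869554 to 63901110, minus strand) was the gene called higher with D inocula. It has the maize orthologue Zm00001eb359220, belongs to an orthogroup with 154 gamagrass genes in the table and overlaps 2 other annotated genes, whose reads could be included because no strand was set in counting. Its normalized counts ran from 11.3 over a median of 37.4 to 1014 in D plants and from 8.47 over a median of 34.1 to 96.2 in W plants. The groups had nearly the same medians and differed in 4 D plants, TRI_G_D plantID_427 (1014), CWR_G_D plantID_424 (957), TRI_N_D plantID_401 (842) and SVR_N_D plantID_432 (695), the shallow library. The log2 fold change was 1.88 (SE 0.37, adjusted p = 0.00368, DESeq2) and was above 0 within each site, though DESeq2 gave no p in CWR and TRI. It was 1.63 without plantID_427 (unadjusted p = 5.27e-06), 1.34 without plantID_424 (p = 0.000107), 1.60 without plantID_401 (p = 1.07e-05) and 1.71 without plantID_432 (p = 3.73e-06, DESeq2), and adjusted p-values were not computed for these refits. With host-conditioned inocula the log2 fold change was 0.34 (SE 0.29), with the counts of 2 D plants replaced by DESeq2. With unplanted inocula it was 1.21 (SE 0.51). A droughted mock plant reached 780, so a high level of Td00002ba006540 was also found without live inoculum.

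Td00002ba002906 (chromosome 1, 184011403 to 184013327, plus strand; maize orthologue Zm00001eb409260, 27 genes in its orthogroup) was lower with D inocula. It overlaps 1 other annotated gene, whose reads could be included. Its normalized counts had a median of 2.63 and a maximum of 23.2 in D plants, and a median of 3.10 and a maximum of 90.3 in W plants. Of the W plants 6, and of the D plants 0, exceeded 50, and below that level the groups overlapped. The log2 fold change was -2.49 (SE 0.52, adjusted p = 0.0119, DESeq2), with the same sign within every site, though DESeq2 gave no p in WEL. It was -2.57 ± 0.70 with host-conditioned and -2.46 ± 0.77 with unplanted inocula (± SE). With 1 plant left out the fold change lay between -2.67 and -2.31, and the unadjusted p was at most 1.10e-05. This p lay above the largest p of the called genes (2.74e-06) in 28 of the 62 refits.

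The other 4 genes called lower, Td00002ba022861, Td00002ba028389, Td00002ba033622 and Td00002ba014764, are named after their values were seen because their calls rest on replaced counts. DESeq2 replaces counts far from the rest of a group, and did so for 3 to 5 plants in each of these genes and for none in the other 4 called genes. In the counts as deposited, Td00002ba022861 averaged 21.5 ± 76.98 in D and 47.7 ± 121.3 in W plants (SD, n = 30 and 32), Td00002ba028389 averaged 61.6 ± 197.1 in D and 131.9 ± 256 in W plants, Td00002ba033622 averaged 37.5 ± 87.5 in D and 110.7 ± 301.4 in W plants, and Td00002ba014764 averaged 45.7 ± 174 in D and 88.5 ± 271.96 in W plants. The highest D plant had 371.1, 917, 466.4 and 850 in these genes in the order named, against 610, 918, 1681 and 1346 in the highest W plant, so the groups overlapped over much of their range. Without replacement only the 4 genes described above were called.

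The site of the soil was examined next, since each site had its own D and W pots. Td00002ba016744, Td00002ba016751, Td00002ba006540 and Td00002ba002906 kept their direction within each of the 4 sites, and the rest of the called genes did so in 3 of 4. Plants of every site took part in these calls, so the agreement was partly built in. DESeq2 gave no p for Td00002ba016744 in CWR and WEL, or for Td00002ba016751 in CWR, WEL and TRI. It also gave none for Td00002ba006540 in CWR and TRI, or for Td00002ba002906 in WEL. Genes called with a site left out were then read in that site, whose plants had not taken part in the call. Without CWR 10 genes were called, of which 5 had the same direction in CWR. Without WEL it was 6 of 8, without SVR 1 of the 2 genes with a value there, and without TRI 6 of 8, and 0 of these genes had the same direction with an unadjusted p under 0.05 in the site left out. Of the 8 genes called over all sites, 3 were called again without CWR, 4 without WEL, 3 without TRI and 0 without SVR.

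**Figure D3:**
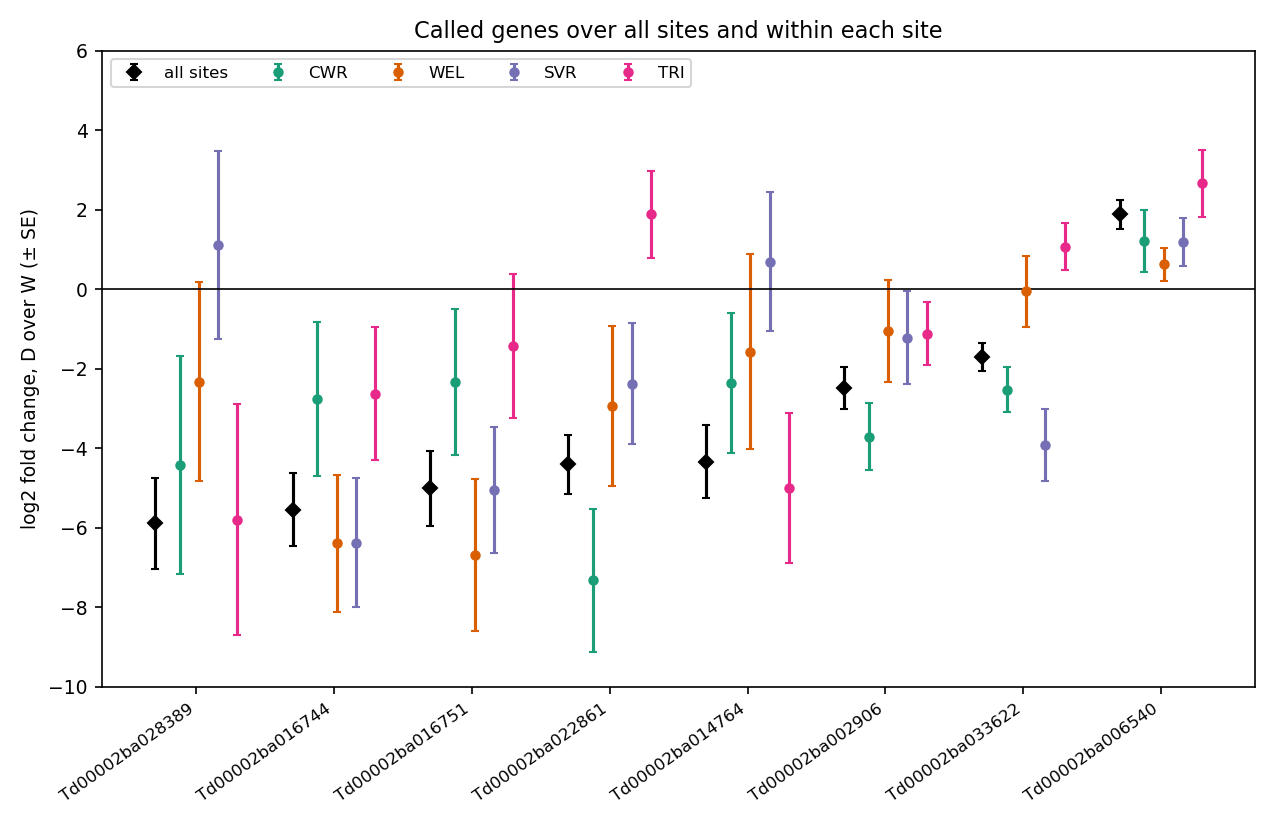
Log2 fold change of D over W inocula with its SE (y axis) for the 8 called genes (x axis), over all sites (black) and within each site (colours). Td00002ba016744 and Td00002ba016751 lie below 0 and Td00002ba006540 above 0 in all 4 sites. Td00002ba028389, Td00002ba022861, Td00002ba014764 and Td00002ba033622 each have 1 site above 0. The plants of each site took part in calling these genes.

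Within sites the numbers of called genes were 4 of 40703 in CWR (0.00983%), 82 of 40672 in WEL (0.202%), 19 of 35935 in SVR (0.0529%) and 27 of 33705 in TRI (0.0801%). edgeR called 0 in each of the 4 sites, with 758 (CWR), 2018 (WEL), 1275 (SVR) and 788 (TRI) genes at an unadjusted p under 0.05. No gene was called in more than 1 site. Over 24870 to 24924 genes with a mean of 50 or more, the fold changes of CWR had correlations of -0.01 with WEL, -0.12 with SVR and -0.01 with TRI, those of WEL -0.43 with SVR and 0.14 with TRI, and those of SVR -0.08 with TRI. The sites share no plants, genes are not independent, and these values are descriptions.

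Plants of WEL inocula had the most called genes, 43 higher and 39 lower with D inocula, and also the fewest D plants. Td00002ba036254 (chromosome 12, no maize orthologue) had 2191 to 3016 normalized counts in the 6 D plants (median 2516) against 3189 to 5530 in the 8 W plants (median 4184), without overlap. Td00002ba041772 (chromosome 16, no orthologue) likewise lay at 281 to 425.2 in D against 480 to 702 in W plants. Td00002ba010145 (chromosome 3, 11 maize orthologues) was higher, at 892 to 1043 in D against 634 to 814 in W plants, and Td00002ba013039 (maize orthologue Zm00001eb298180) at 2071 to 2285 against 1688 to 1958. The log2 fold changes of these 4 genes were -0.71, -0.64, 0.38 and 0.22 (SE 0.14, 0.12, 0.07 and 0.04, DESeq2), so the called genes of WEL included tight differences at high level, unlike those over all sites. In edgeR the adjusted p was 0.757 for each. These 4 genes were chosen because they were called, and how many of all tested genes separate without overlap was not counted. Of the 82 genes 16 were at 0 in all plants of a group, and 63 had over 50% of their counts in 5 of the 14 plants.

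In TRI, 8 genes were higher and 19 lower with D inocula. The lower genes named here, nearby genes on chromosome 14, come from the 4 of 27 that met the naming rule's limits on level and on the share of 5 plants, and other lower genes had a smaller p. Td00002ba039079 (57718098 to 57720322) had 517 to 1052 normalized counts in 8 D plants (median 805) against 1050 to 1681 in 8 W plants (median 1362), a log2 fold change of -0.80 (SE 0.15, adjusted p = 0.000957, DESeq2). Td00002ba039072 (57431802 to 57434902) had 2304 to 3803 in D (median 2715) against 3641 to 6130 in W plants (median 4048), a log2 fold change of -0.63 (SE 0.13, adjusted p = 0.00611). Their maize orthologues, Zm00001eb200730 and Zm00001eb200720, also have adjoining identifiers. Outside TRI the pair gave -0.30 and -0.51 in SVR but 0.10 and 0.02 in WEL and 0.09 and 0.22 in CWR. Td00002ba035838 (maize orthologue Zm00001eb282890) was higher, at 192 to 247.6 in D and 138.3 to 192 in W plants, and so was Td00002ba031973, at 811 to 1225 in D and 724 to 883 in W plants, with log2 fold changes of 0.39 and 0.26.

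In SVR all 19 called genes had over 50% of their counts in 5 of 16 plants. Td00002ba044744 (chromosome 18, maize orthologue Zm00001eb264280) did not exceed 16.2 in the 8 D plants, against 2376, 1297, 1243 and 821 in 4 of 8 W plants, a log2 fold change of -6.27 (SE 1.14, adjusted p = 0.00127, DESeq2), whereas in TRI it averaged 255.2 ± 463 in D and 6.04 ± 4.28 in W plants. Td00002ba026614 (maize orthologue Zm00001eb080050) was higher at 168 ± 106.9 in D and 40.5 ± 27.8 in W plants (SD, n = 8 each). Without plantID_432 the count was again 19, of which 11 were the same genes. In CWR, Td00002ba017418 on chromosome 5 averaged 154 ± 100 in D and 13.4 ± 7.78 in W plants (log2 fold change 3.503, SE 0.64), with 0.51 (SE 0.46) over all sites, and Td00002ba007397 reached 2.71 in D plants but 133.2 to 218.8 in 4 of 8 W plants.

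Whether the soil had held a plant during conditioning was the next question. With host-conditioned inocula (16 D and 16 W plants) 6 of 42767 genes were called (0.014%), 2 higher and 4 lower. With unplanted inocula (14 D and 16 W plants) 34 of 37446 were called (0.0908%), 26 higher and 8 lower, and 26 without TRI_N_D plantID_414, which held the highest value in 9 of the 34. edgeR called 0 in either, with 697 and 1260 genes at an unadjusted p under 0.05, and no gene was called in both. With unplanted inocula Td00002ba003293 (chromosome 1, maize orthologue Zm00001eb002040) averaged 393.7 ± 303.3 in D and 121.7 ± 106.4 in W plants (log2 fold change 1.87, SE 0.42, adjusted p = 0.0157, DESeq2). Td00002ba006080 (chromosome 2) averaged 64.9 ± 43.5 in D and 166 ± 90.6 in W plants (-1.44, SE 0.33, adjusted p = 0.0271). Td00002ba016270 (maize orthologue Zm00001eb193930, 80 genes in its orthogroup) averaged 7.14 ± 5.80 in D and 25.6 ± 20.2 in W plants (-2.04, SE 0.48, adjusted p = 0.0301). Of the 34 genes called with unplanted inocula, 31 had over 50% of their counts in 5 plants, as had all 6 called with host-conditioned inocula. The 3 genes described here had overlapping groups but less than 50% of their counts in 5 plants. With host-conditioned inocula the 3 gave 0.45, -0.80 and -0.29 and were not called.

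The difference between both kinds of inoculum, tested as an interaction, was called for 19 of 43418 genes (0.0438%), 3 with a higher and 16 with a lower D over W ratio after host conditioning (edgeR 0 called, 1290 at an unadjusted p under 0.05). Td00002ba019421 (chromosome 5, 10090 bp, no orthologue) had the clearest lower ratio. After host conditioning it had a median of 4.15 and a maximum of 61.8 in D plants, against a median of 69.2 and a maximum of 1847 in W plants. After unplanted conditioning it had a median of 19.8 and a maximum of 3847 in D plants, against a median of 14.9 and a maximum of 1671 in W plants. The interaction was -8.33 on the log2 scale (SE 1.35, adjusted p = 2.78e-05 in DESeq2 and 0.130 in edgeR). A mock well-watered plant reached 2827. Td00002ba015111 (chromosome 4, overlapping 2 genes) followed the same pattern, at 35.5 ± 81.5 in D and 213 ± 242.97 in W plants with host-conditioned and 212.4 ± 375.2 in D and 65.2 ± 133.4 in W plants with unplanted inocula (interaction -4.82, SE 0.998, adjusted p = 0.00444 in DESeq2).

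Precipitation legacy of the site gave 16 called interactions among 40033 genes (0.04%), 13 with a higher and 3 with a lower D over W ratio in low than in high legacy (edgeR 0 called, 2099 at an unadjusted p under 0.05). These included genes present in every plant. Td00002ba024319 (chromosome 7, maize orthologue Zm00001eb250410, overlapping 1 gene) averaged 375.3 ± 201.8 in D and 236 ± 38.6 in W plants of low legacy, but 233.9 ± 62.2 in D and 369 ± 187 in W plants of high legacy (interaction 1.30, SE 0.28, adjusted p = 0.0170 in DESeq2 and 0.319 in edgeR). Its log2 fold change was 0.74 in SVR and 0.51 in TRI, against -0.78 in CWR and -0.54 in WEL. Td00002ba028328 (chromosome 9, maize orthologue Zm00001eb296930, overlapping 3 genes) averaged 266 ± 54.5 in D and 214.7 ± 33.02 in W plants of low legacy, and 212 ± 68.3 in D and 274.6 ± 47.2 in W plants of high legacy (interaction 0.68, SE 0.16, adjusted p = 0.0452 in DESeq2 and 0.511 in edgeR). D and W plants thus differed in opposite directions in these genes by legacy, and all 4 groups overlapped.

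**Figure D4:**
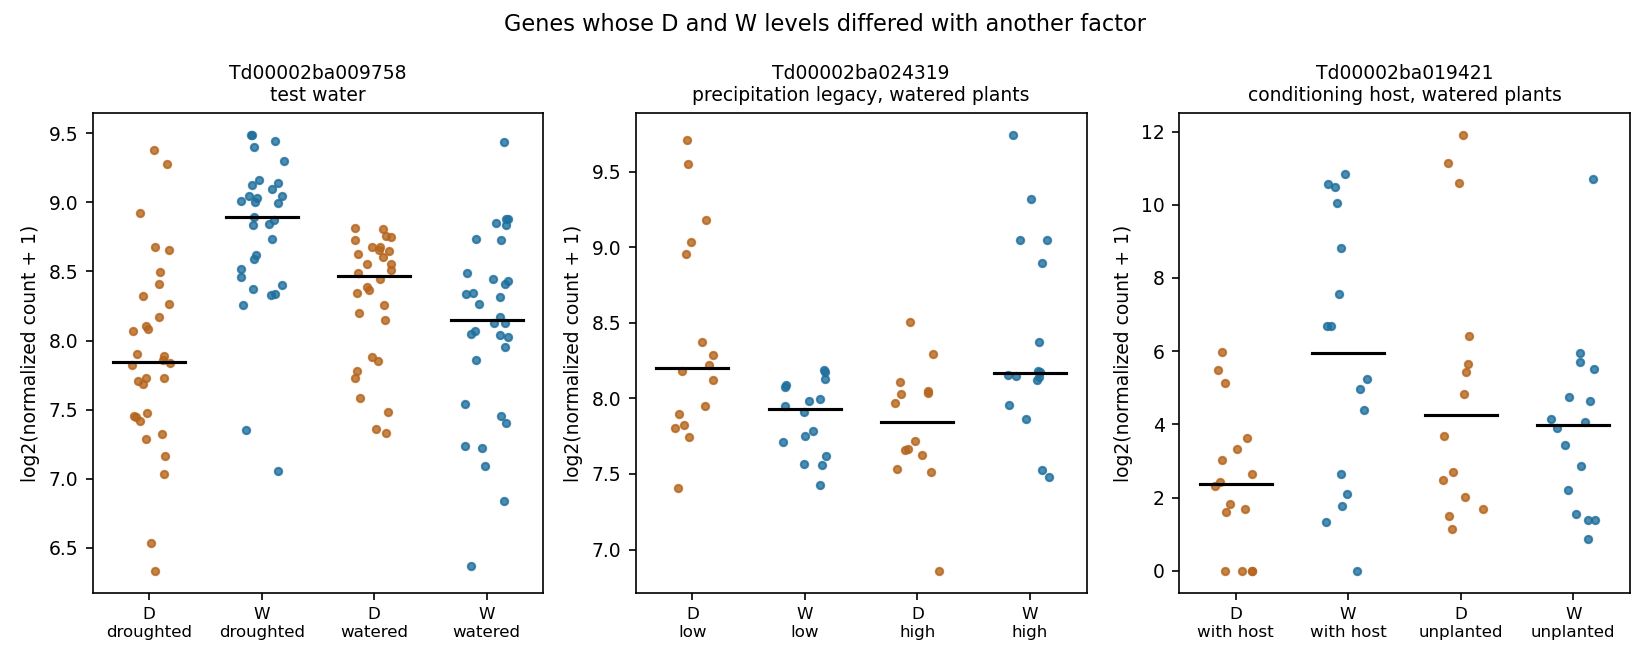
Normalized counts on a log2 scale after adding 1 (y axis) of 3 genes in single plants, with medians as bars, by conditioning water (D brown, W blue) and a second factor (x axis). Td00002ba009758 is lower in D than W plants under drought (medians 229 and 474.6), Td00002ba024319 has its higher values in D plants of low and W plants of high legacy, and Td00002ba019421 has its lowest median in D plants of host-conditioned inocula.

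The same inocula were also given to droughted plants, which asks whether the water history of the inoculum acts alike under both regimes. Among droughted plants 23 of 42180 genes were called for D against W inocula (0.0545%), 9 higher and 14 lower, and 0 of them were among the 8 called in well-watered plants. The interaction of conditioning water with test water, over all live plants, was called for 30 of 44251 genes (0.0678%), 14 with a higher and 16 with a lower D over W ratio under drought. Here edgeR called 10 genes, 7 of them shared, with 2082 at an unadjusted p under 0.05. Over 25277 genes with a mean of 50 or more the fold changes of droughted and well-watered plants had a correlation of -0.10 and the same sign in 44.6%, a description across genes.

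Td00002ba009758 (chromosome 3, maize orthologue Zm00001eb329060, a single gamagrass gene in its orthogroup) was the only gene named by rule in this interaction and called under each alternative. It had 8.25% of its counts in 5 plants. Under drought it had 79.6 to 665 normalized counts with D inocula (median 229) against 132.1 to 718 with W inocula (median 474.6), a log2 fold change of -0.85 (SE 0.15, adjusted p = 0.000163, DESeq2). In well-watered plants it had 160 to 450 with D inocula (median 353) against 81.7 to 693 with W inocula (median 283), a fold change of 0.15 (SE 0.14, adjusted p = 1.0). The interaction was -0.96 (SE 0.21, adjusted p = 0.00934 in DESeq2 and 0.0410 in edgeR). Mock plants averaged 375.2 ± 100.3 under drought (n = 4) and 247.3 ± 120.03 well-watered (n = 3).

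The pair on chromosome 5, named here after its values were seen, was called in this interaction by both tools. The fit holds the same well-watered plants that gave the calls of the pair and of Td00002ba006540. Their interactions were thus partly built in and are no separate support. Another gene called by both, Td00002ba009640, had a smaller adjusted p than the pair (2.32e-11 in DESeq2 and 6.33e-08 in edgeR). Its interaction was -10.1, with 71.2% of its counts in 5 plants. Td00002ba016744 gave 8.61 (SE 1.41, adjusted p = 7.64e-06 in DESeq2 and 3.80e-05 in edgeR) and Td00002ba016751 gave 8.53 (SE 1.44, adjusted p = 1.92e-05 and 7.01e-05). Under drought the plants above 50 in Td00002ba016744 were 3 with D inocula (335 in CWR_N_D plantID_303, 280 in SVR_N_D plantID_380 and 65.1 in CWR_G_D plantID_196) and 1 with a W inoculum (58.8 in TRI_N_W plantID_277), against 0 with D and 7 with W inocula among well-watered plants. In the fit of droughted plants alone DESeq2 replaced the counts of these 4 plants and gave -0.59 (SE 0.77, adjusted p = 0.983). Td00002ba006540 was also called in the interaction (-1.81, SE 0.42, adjusted p = 0.0262, DESeq2), with a maximum of 59.2 in droughted D plants and 51.1 in droughted W plants. In droughted plants alone its log2 fold change was 0.07 (SE 0.18).

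The drought response itself gave a reading of whether D inocula moved well-watered plants towards or away from the droughted state. For each plant a drought score was taken as the mean log2 CPM of genes raised by drought minus that of genes lowered by drought, using genes called in plants of the other legacy class (2705 raised and 2639 lowered for plants of low legacy, 1600 and 1618 for plants of high legacy), so that no plant chose its own genes. All droughted live plants had lower plant numbers than all well-watered ones, and their libraries were deeper (median total counts of 51.9 M with D and 53.2 M with W inocula, against 24.3 M and 27.7 M in well-watered plants), so test water cannot be told apart from plant number and depth in these genes or in the interaction with test water. Droughted plants scored 1.58 ± 0.54 with D and 1.63 ± 0.62 with W inocula (SD, n = 32 and 31). Well-watered plants scored 0.36 ± 0.55 with D and 0.32 ± 0.52 with W inocula (n = 30 and 32), a difference of 0.04 (permutation test within site and conditioning host, two-sided, p = 0.785). By site the scores of D and W plants were 0.24 and 0.41 in CWR, 0.39 and 0.30 in WEL, 0.26 and 0.27 in SVR, and 0.54 and 0.30 in TRI. The scores of well-watered plants ran from -0.49 to 1.41 with D and from -0.76 to 2.05 with W inocula, and both ranges reached into those of droughted plants. No difference between D and W plants was detected, and the mean difference was small beside the SD between plants.

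**Figure D5:**
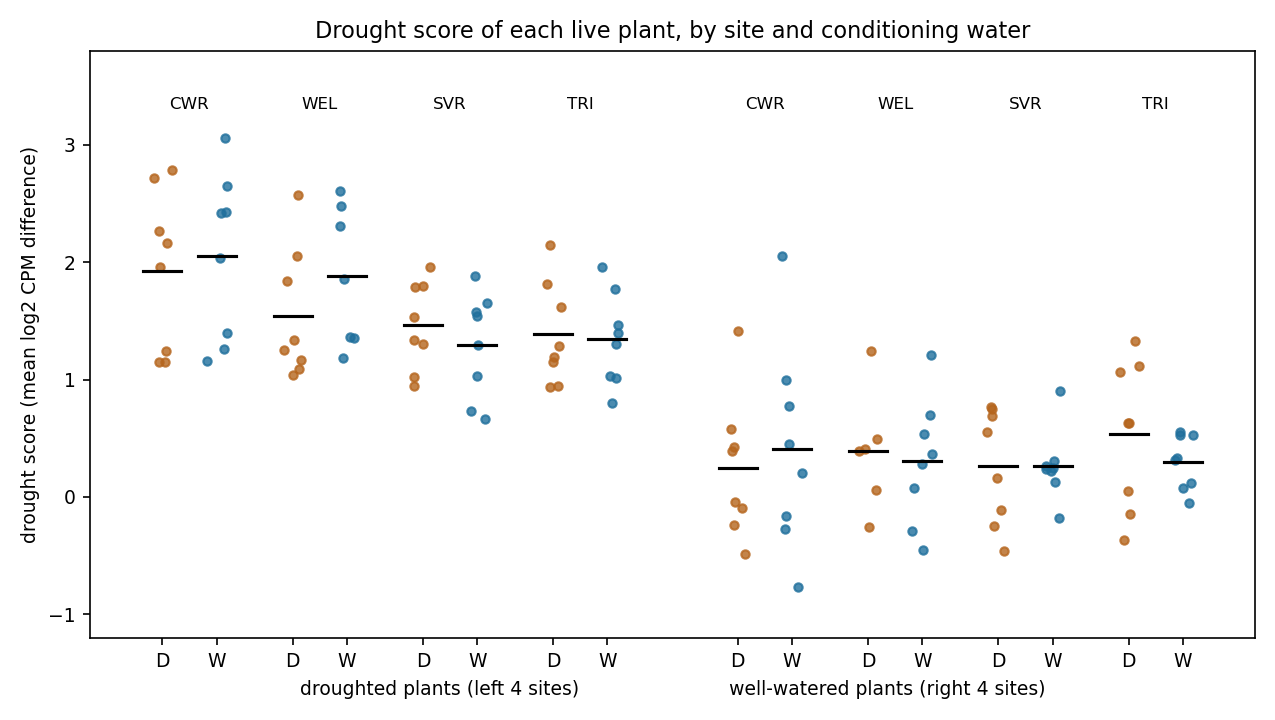
Drought score (y axis, mean log2 CPM of raised minus lowered genes) of every live plant by site and conditioning water (x axis, D brown and left of W blue), with means as bars, for droughted plants on the left and well-watered plants on the right. D and W plants overlap at every site, and the means of well-watered plants lie between 0.24 and 0.54.

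Genes that the study annotates by function were read last. The study chose them on these samples for another contrast, so they are no independent choice. In none of the 5 lists was a gene called for D against W inocula in well-watered or in droughted plants, where 0.0184% and 0.0545% of all tested genes were called. The 4 orthologues of maize nas7, a nicotianamine synthase that makes a chelator of iron and zinc, had a median log2 fold change of -1.12, against 0.01 over all genes, and 2 of them had an unadjusted p under 0.05. Those 2, Td00002ba015515 and Td00002ba015516, held identical counts and cannot be told apart, and their shared value is the median. The other 2 gave -1.34 and -0.71 (unadjusted p = 0.187 and 0.431, DESeq2). In droughted plants these gave 0.26 and 0.39, against -0.99 for the identical genes. All 4 were near the floor, with mean normalized counts of 1.21 to 4.27. Td00002ba015515 had a median of 1.53 and a maximum of 11.1 in D plants against a median of 2.20 and a maximum of 619 in W plants, with 1 W plant far above the rest. DESeq2 replaced the count of 1 W plant before fitting, and its log2 fold change of -1.12 (SE 0.51) had an adjusted p of 1.0.

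Among the 6 genes of ethylene and abscisic acid signalling and heat shock (median -0.15), the orthologues of signalling genes gave fold changes of -0.19 to -0.05. The heat shock protein gene Td00002ba042486, of a family that keeps other proteins folded under stress, stood apart with -2.20 (SE 0.52, p = 2.24e-05, adjusted p = 0.0957, DESeq2). Its normalized counts had a median of 5.51 and a maximum of 72.9 in D plants, against a median of 6.47 and a maximum of 949 in W plants. Above 150 lay 4 W plants, all with host-conditioned inocula (949 in SVR_G_W plantID_470, 652 in TRI_G_W plantID_396, 248.3 in CWR_G_W plantID_417 and 190 in CWR_G_W plantID_478), and 0 D plants. It passed the limit in 5 of 19 alternative fits, all with added covariates. Under drought it averaged 28.7 ± 105.2 with D and 52.7 ± 173 with W inocula.

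The remaining lists gave small values among genes with a p-value. Defence and fungal symbiosis genes had a median of -0.24 over 4 of 6 members with a p-value. The other 2 members, Td00002ba005375 and Td00002ba005376, orthologues of a pathogenesis-related protein gene, had nearly the same counts and no p-value in DESeq2. Their fitted log2 fold change was 3.83 (SE 0.88) each. Td00002ba005375 reached 9851 in a D plant against 2021 in the highest W plant, while its medians were 1.38 in D and 1.30 in W plants, and a droughted mock plant reached 4221. The peroxidase, aldolase and tryptophan synthase orthologues had a median of -0.26 (3 genes, smallest p = 0.314), and the regulator and hormone genes, orthologues of ga20ox7, mads58, ms33 and pat3, a median of -0.10 with fold changes of -0.50 to 0.20. Of the genes raised by drought, 0 of 1633 (low legacy) and 0 of 2772 (high legacy) were among the 8 called for conditioning water (0.0184% of all tested genes), and of those lowered, 1 of 1819 and 3 of 2812. The same well-watered plants entered the drought calls and the calls for conditioning water, so these counts are partly built in.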

How the data were processed

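Poly(A) RNA of crown roots was sequenced from 133 plants. The values deposited by the authors are expected counts: reads were trimmed with cutadapt, aligned with HISAT2, cleared of duplicates with SAMtools and counted per gene of the assembly Td-KS_B6_1-REFERENCE-PanAnd-2.0a with featureCounts 2.0.5, sharing reads of several genes as fractions and setting no strand. Counts were rounded to whole numbers here. Maize orthologues came from the deposited OrthoFinder table, which holds no measurements. No deposited column held comparisons by the authors, and 0 value columns were left unused. No genome sequence was used.

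D and W inocula were compared with DESeq2 1.42.0 (R 4.3.3; two-sided Wald test, covariates legacy and conditioning host, adjusted p under 0.05 over all tested genes). edgeR 4.0.16, limma 3.58.1 and sva 3.50.0 served as alternatives, vegan 2.7.1 for the permutational analysis of distances with 10000 permutations, and scores were tested with 100000 permutations. Calls within a site, host history or legacy and interactions used the same tests. Log2 CPM used a prior count of 1. One mock library of very low depth was left out. The models were tested on simulated data, where DESeq2 made a larger share of false calls than edgeR. The simulated spread of a gene between plants was capped, so the result may not hold for genes high in only a few plants. In each comparison at most 2 called genes higher and 2 lower were named, by smallest p, first among genes whose normalized counts averaged at least 10 and held less than 50% in their 5 highest libraries. Members and gene lists were chosen with earlier results of these data known. In the refits without 1 plant, 3000 genes were refitted. Normalized counts are divided by DESeq2 size factors, and total counts of 1.14 to 69.4 M limit the precision of low genes.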

Additional observations from a re-analysis of the deposited data

Results flagged for a closer look

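For the drought score and named genes, 32 sets of values from the plants of a site and conditioning group were examined. Of these, 7 held a plant far from the others, where chance gives about 1 in 20. The genes were called on these same plants, partly through a few high plants, so chance is no fair standard for them. Values are log2 of the normalized count plus 1. For Td00002ba006540 these were CWR_G_D plantID_424 at 9.90 and WEL_G_D plantID_454 at 6.89. For Td00002ba016744 they were TRI_N_D plantID_401 at 2.80, TRI_N_W plantID_484 at 5.95 and CWR_N_W plantID_400 at 8.73. WEL_N_W plantID_465 stood at 5.90 for Td00002ba002906, and SVR_N_W plantID_398 had a drought score of 0.90.

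A difference between groups in the effect of conditioning water was called by DESeq2 interaction, on the log2 scale, in the following genes. edgeR called 0 genes in the interactions with host and with legacy. Of the genes named for test water it called only Td00002ba009758. Between host-conditioned and unplanted inocula it was -8.33 for Td00002ba019421, -4.82 for Td00002ba015111, 7.43 for Td00002ba039084 and a fitted 30 for Td00002ba009499. Between low and high legacy it was 1.30 for Td00002ba024319, 0.68 for Td00002ba028328, -5.09 for Td00002ba024557 and a fitted -30 for Td00002ba009499. The values of 30 in size are limits of the fit in a gene at 0 in most plants and measure no fold. Between droughted and well-watered plants it was 3.74 for Td00002ba027032, 4.76 for Td00002ba043124, -4.60 for Td00002ba016530 and -0.96 for Td00002ba009758.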

How the results depend on the processing

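Called genes are given here as a share of the genes tested, 0.0184% over all sites as reported. This became 0 with edgeR or limma voom, 0.220% with edgeR without a filter on low counts, 0.00933% with a filter of 10 counts in 14 libraries, 0.00944% without replacement of outlying counts, 0.0384% with all live libraries in the fit, 0.00705% without the SVR plants, 0.121% in libraries of 30 M counts or more, 0.0308% and 0.0408% in plants up to and above the median plant number, 0.140% with a spline of plant number, 0.112% with log2 total count and 0.170% with 2 surrogate variables. On replaced counts, alternatives chosen after seeing the data, the spline gave 0.101% and total count 0.0461%. The covariate fits replace no outlying counts, and otherwise the cause was not tested. Of 22 alternatives 7 stayed within 1.5 times. With plant number added the shares were 0.267% (CWR), 1.06% (WEL), 0.197% (SVR), 0.124% (TRI), 0.0794% (host-conditioned), 0.148% (interaction with host), 0.149% (with legacy) and 0.151% (with test water). edgeR gave 0 in each comparison but the last, where it gave 0.0291%, and was not run for droughted plants. Td00002ba009499 reversed to -0.19 in the host interaction with plant number added. Of 43 named results, 39 lost or reversed a call under at least 1 alternative. The drought score and the permutational analysis passed no threshold under any alternative. No paired analysis was possible because plant numbers are unique. Depth limits low genes most.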
